A study of Mus musculus with 16 samples.

Results

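The ephrin, semaphorin, netrin and Slit guidance genes are 66 protein-coding mouse genes, chosen by symbol alone and not by any measured value, out of 35975 genes with an entry in the count tables. They comprise 5 A-class ephrins (Efna), 3 B-class ephrins (Efnb), 9 EphA receptors (Epha), 5 EphB receptors (Ephb), 7 class 3 semaphorins (Sema3), 13 semaphorins of the classes numbered Sema4 to Sema7, 9 plexins (Plxn), 4 netrins (Ntn1, Ntn3, Ntn4 and Ntn5), 4 Unc5 receptors, 3 Slits and 4 Robo receptors. Counted by role, 35 are ligands and 31 are receptors. Of the 66, 65 had enough counts to be tested. Epha6 did not, with 14 counts over the 16 libraries and 0 in 8 of them.

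These families were named for steering axons and migrating cells. Ephrins are bound to the cell surface and signal on contact through the Eph receptor tyrosine kinases, and the ephrin-bearing cell can receive a signal in return. Semaphorins are secreted or membrane-bound ligands of the plexins, netrins attract through Dcc and repel through the Unc5 receptors, and Slits repel through the Robo receptors. In the early embryo the same systems act in cell sorting, boundary formation, gastrulation and vessel growth, and several of their genes are active in pluripotent cells.

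RNA was sequenced in bulk from ES-E14TG2a (E14) mouse embryonic stem cells of 2 genotypes, written TKO and WT, at day 0 and after 2, 4 and 7 days of differentiation toward epiblast-like cells (EpiLC). Day 0 cells of both genotypes were kept on fibronectin with LIF, vitamin C and inhibitors of Gsk3 and MEK; the later cells of both received Fgf2, Activin A and Knock-out Serum Medium instead and were split once more at day 4. Each of the 8 groups had 2 libraries, called biological replicates in the labels. The p-values measure the spread between such cultures of 1 line, pooled over the 8 groups. No clone is named for either genotype. TKO is not spelled out in the labels, and the loss of Dnmt1, Dnmt3a and Dnmt3b, the DNA methyltransferase genes, is an assumption here.

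Libraries held 33168178 to 58197630 estimated counts. The methyltransferase transcripts were examined first, as a check of the labels. Dnmt1, which copies methylation after replication, ran from 36.2 to 55.9 CPM (the estimated count scaled to library size) in the 8 TKO libraries and from 310.3 to 545 CPM in the 8 WT libraries. Dnmt3a ranged from 2.45 to 187 CPM in TKO and from 27.5 to 974 CPM in WT, and each TKO library was under the WT libraries of its day; TKO day 4 replicate 1 held the 187 CPM, against 33.9 CPM in TKO day 4 replicate 2. Dnmt3b was at 29.3 and 28.9 CPM in TKO and 27.3 and 29.3 CPM in WT at day 0, where the genotypes overlapped, and was lower in TKO on the later days. Markers of the labelled states moved with the labels. Naive pluripotency genes summed to 266 CPM at day 7 against 4378 CPM at day 0 in TKO, and to 251 CPM at day 7 against 3990.3 CPM at day 0 in WT, and all 12 tested formative and primed genes rose in both genotypes.

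Replicates were less alike in some groups than in others. WT day 0 replicate 1 held less of long transcripts: over genes of 6000 bases or more its median level was 0.51 log2 units under that of WT day 0 replicate 2, and WT day 2 replicate 2 lay 0.27 under WT day 2 replicate 1. Guidance genes are long, with a median effective length of 3685 bases against 2085 bases over all tested genes. Of 16 guidance genes of 4000 bases or more and at least 1 CPM, 15 were lower in WT day 0 replicate 1 than in replicate 2, against 6 of 16 lower in replicate 1 among the TKO day 0 libraries. Genes more than 2-fold apart between replicates numbered 145 in TKO day 4, 110 in WT day 0 and 70 in WT day 4, against 5 to 11 in the other groups, so both sides of the day 4 comparison were noisy. Over guidance genes of 1 CPM or more the median difference between replicates was 0.307 log2 units in TKO day 4 and 0.268 in WT day 4, the widest of the 8 groups. Counts at days 0, 2 and 4 are therefore given with and without single libraries.

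**Figure D1:**
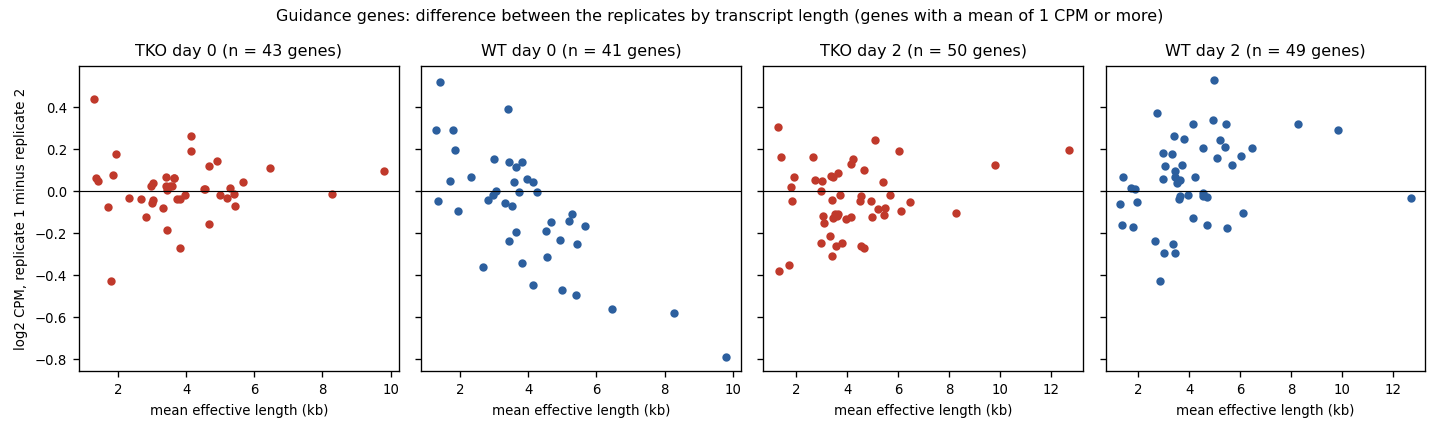
Difference between the replicates of a group (log2 CPM, replicate 1 minus replicate 2) against effective transcript length in kilobases, for guidance genes with a group mean of 1 CPM or more; 1 point is 1 gene. The long genes sit under 0 in WT day 0, where 15 of 16 genes of 4000 bases or more were lower in replicate 1, and show no such tilt in TKO day 0.

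Levels between genes were compared in the deposited TPM, which allow for transcript length and library size. Averaged over the 16 libraries, 48 of the 66 genes reached 1 TPM, 18 reached 10 TPM and 2 reached 50 TPM. The highest were Plxna1, a coreceptor of neuropilins for class 3 semaphorins, at 73.8 TPM (27.0 to 133 TPM), and Epha2, an EphA receptor of epiblast and epithelia, at 57.4 TPM (14.9 to 117 TPM). Their ranges over libraries overlapped, so their order was not fixed. The leading gene of each other family was Unc5b at 31.7 TPM, Ephb4 at 28.0 TPM, Sema6a at 24.6 TPM, Efnb2 at 16.8 TPM, Efna4 at 15.99 TPM, Slit3 at 15.9 TPM, Sema3e at 10.9 TPM, Robo1 at 8.31 TPM and Ntn1 at 5.66 TPM. Receptors thus held the top of the order, with 6 of them, Plxna1, Epha2, Plxnb2, Epha1, Unc5b and Ephb4, above the highest ligand, Sema6a. Levels also varied widely over the libraries: Slit3 ran from 0.232 TPM to 52.7 TPM and Epha1 from 0.798 TPM to 182 TPM.

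**Figure D2:**
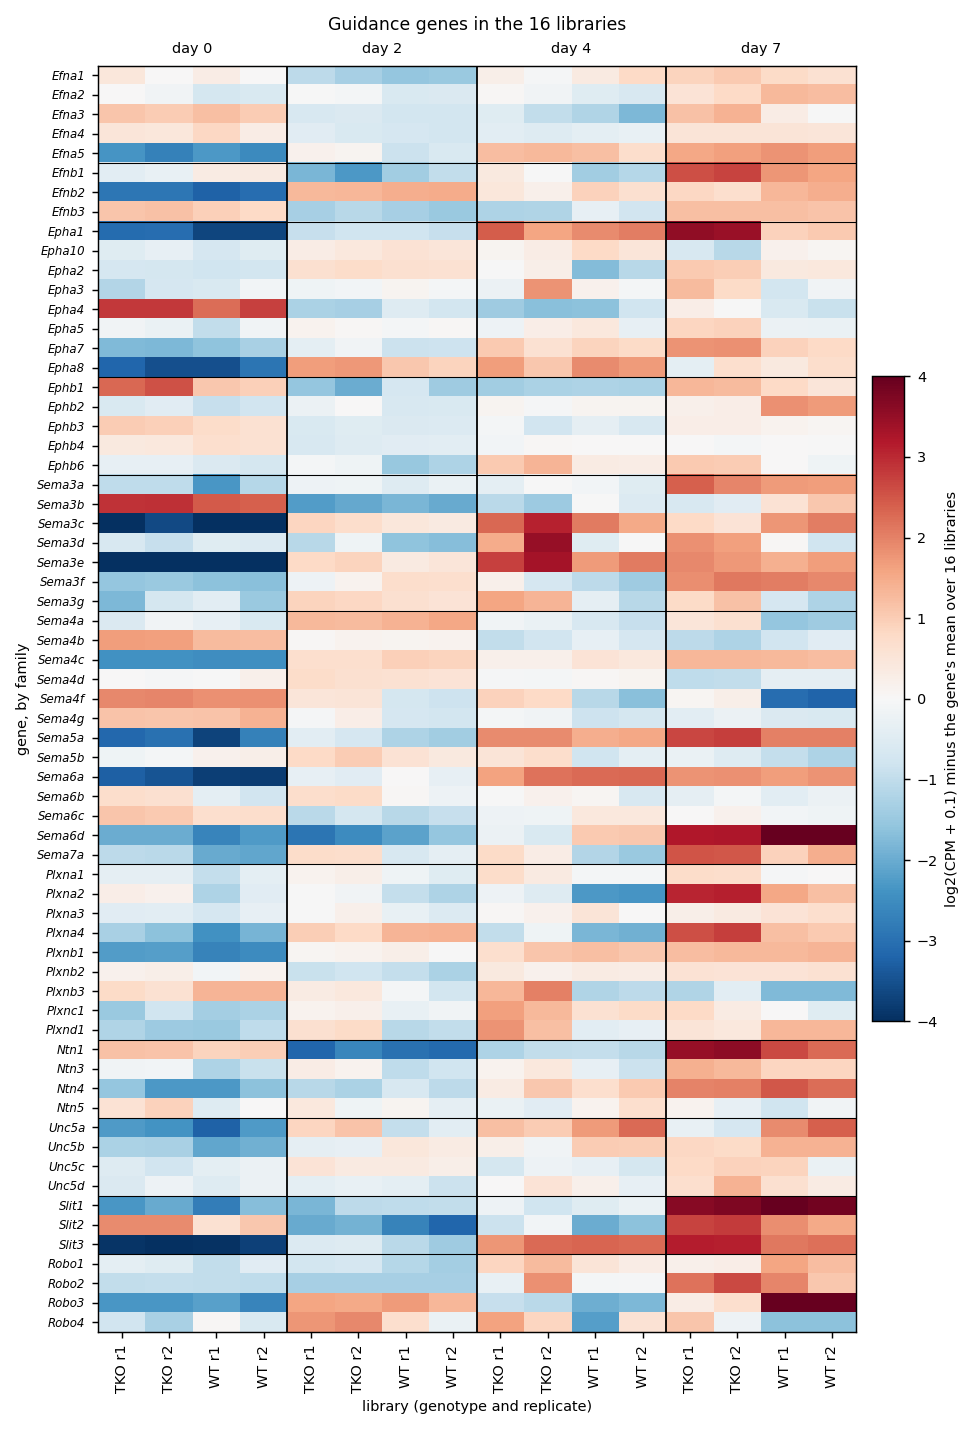
Level of each of the 65 tested guidance genes in each library, as log2(CPM + 0.1) minus the gene's mean over the 16 libraries (the colour scale is cut at both ends). Rows are grouped by family and columns by day, with TKO left of WT; by mean CPM 34 genes are highest at day 7 in TKO and 32 in WT.

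The first question is how the guidance genes changed over the 7 days in each genotype. In TKO cells at day 7, 58 of the 65 tested genes differed from day 0, 46 higher and 12 lower, and in WT cells 54 differed, 41 higher and 13 lower (edgeR quasi-likelihood test, Benjamini-Hochberg adjusted p under 0.05 over 18489 genes). Of all tested genes 67.8% were called in TKO and 66.2% in WT, split almost evenly between higher (36.1% and 32.9%) and lower (31.7% and 33.2%). Guidance genes were higher in 70.8% of cases in TKO and in 63.1% in WT. Their median log2 fold change was 1.71 in TKO and 1.17 in WT, against 0.04 and -0.03 over all tested genes. Both sides of the signalling pairs took part: 23 of 35 ligands and 23 of 30 receptors rose in TKO, and 20 ligands and 21 receptors rose in WT. In bulk RNA a change in the number of cells that express a gene and a change in its RNA per cell cannot be told apart.

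Sharing of calls was counted for the guidance genes alone, with no count over all tested genes beside it. The genotypes shared most of these calls: 40 genes were higher at day 7 in both and 10 were lower in both. Sema4a, a transmembrane semaphorin, was the single gene called in opposite directions, at 4.37 and 4.9 CPM at day 7 and 2.08 and 2.8 CPM at day 0 in TKO, and at 1.01 and 1.11 CPM at day 7 and 2.46 and 2.01 CPM at day 0 in WT. By mean CPM, 34 genes peaked at day 7 in TKO and 32 in WT, 10 and 12 peaked at day 0, 9 and 9 at day 2, and 12 and 12 at day 4. Not every gene climbed steadily: Efnb2, a ligand of EphB receptors, already had 82.7 and 83.9 CPM in TKO and 91.7 and 92.4 CPM in WT at day 2 after 4.44 and 4.42 CPM in TKO and 3.46 and 3.94 CPM in WT at day 0.

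Among the secreted ligands, large gains were found in Slits and class 3 semaphorins. Slit3 stood at 152 and 150.3 CPM at day 7 and 1.05 and 0.953 CPM at day 0 in TKO (log2 fold change 7.23 ± 0.20 (SE), adjusted p = 2.92e-12), and at 73.8 and 79.7 CPM at day 7 and 1.03 and 1.21 CPM at day 0 in WT (log2 fold change 6.10 ± 0.19, adjusted p = 8.53e-12). Slit1 reached 15.2 and 16.1 CPM at day 7 against 0.142 and 0.202 CPM at day 0 in TKO (log2 fold change 6.48 ± 0.37, adjusted p = 2.47e-09), and 22.1 and 17.7 CPM against 0.0811 and 0.276 CPM in WT (log2 fold change 6.75 ± 0.36, adjusted p = 1.29e-09). In both genes and both genotypes the day 7 libraries lay far above the day 0 libraries. Genes described in full, here and below, were chosen among those whose libraries did not overlap. Sema3e, which binds Plxnd1 without a neuropilin, had 61 and 53.1 CPM at day 7 against 0.569 and 0.491 CPM at day 0 in TKO (log2 fold change 6.74 ± 0.27, adjusted p = 1.24e-10), and 43.4 and 51.3 CPM against 0.433 and 0.477 CPM in WT (log2 fold change 6.69 ± 0.27, adjusted p = 1.42e-10). Sema3c, a guide of neural crest cells to the heart, had 32.4 and 40.0 CPM at day 7 against 0.351 and 0.477 CPM at day 0 in WT (log2 fold change 6.43 ± 0.38, adjusted p = 1.28e-08); its rise in TKO was 4.88 on the log2 scale. At day 4 TKO libraries had 106 and 161 CPM of Sema3e and 47.2 and 81.1 CPM of Sema3c, each above the TKO day 7 libraries; this step was not tested. The WT log2 fold change of Slit1 was 6.16 without WT day 0 replicate 1 and 7.92 without replicate 2.

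The membrane-bound semaphorins split in both genotypes. Sema6d, a ligand of Plxna1, had the largest fitted rise in WT, with 40.6 and 29 CPM at day 7 against 0.0541 and 0.10 CPM at day 0 (log2 fold change 8.75 ± 0.32, adjusted p = 3.76e-11). Those day 0 values rest on 2 and 4 counts, so the size of the rise is uncertain beyond its SE. In TKO Sema6d rose by 5.93, from 5 and 5 counts at day 0. Sema5a, a transmembrane semaphorin with thrombospondin repeats, had 44.4 and 47.2 CPM at day 7 against 0.683 and 0.779 CPM at day 0 in TKO (log2 fold change 5.96 ± 0.21, adjusted p = 1.99e-11; 4.73 with an offset for effective length) and rose by 5.30 in WT. Against this, 6 of 13 genes of these classes fell in TKO and 7 in WT. Sema4b fell to 14 and 12.3 CPM at day 7, against 92.4 and 91 CPM at day 0, in TKO (log2 fold change -2.81 ± 0.13, adjusted p = 4.18e-10) and to 17.3 and 21.5 CPM, against 70.6 and 68.5 CPM, in WT (log2 fold change -1.84 ± 0.13, adjusted p = 1.90e-08). Sema4g fell to 6.5 and 7.55 CPM, against 19.7 and 19.3 CPM, in TKO (log2 fold change -1.47 ± 0.13, adjusted p = 2.93e-07) and to 5.84 and 5.81 CPM, against 19.6 and 23.1 CPM, in WT (log2 fold change -1.87 ± 0.13, adjusted p = 2.64e-08). Both were lower at day 7 in each library of each genotype, as the choice of genes required. Sema4f fell further in WT, to 0.652 and 0.579 CPM at day 7 against 21.8 and 21.9 CPM at day 0 (log2 fold change -5.14 ± 0.19, adjusted p = 4.30e-11), than in TKO, where it had 6.44 and 7.22 CPM at day 7 and 23.6 and 24.2 CPM at day 0 (log2 fold change -1.81 ± 0.15, adjusted p = 1.24e-07). Among the secreted class, Sema3b, described as a tumour suppressor, fell to 2.01 and 2.31 CPM at day 7, against 24.2 and 24.8 CPM at day 0, in TKO (log2 fold change -3.50 ± 0.22, adjusted p = 6.68e-09) and to 4.88 and 6.9 CPM, against 18 and 17.2 CPM, in WT (log2 fold change -1.58 ± 0.20, adjusted p = 7.84e-06).

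Among the receptors, Epha1, known from epithelia, rose in TKO to 332 and 314 CPM at day 7, against 3.3 and 3.41 CPM at day 0 (log2 fold change 6.59 ± 0.25, adjusted p = 1.18e-10); its rise in WT was 4.71 on the log2 scale. Epha4, which binds ephrins of both classes, fell to 22.7 and 18.7 CPM at day 7, against 134 and 135 CPM at day 0, in TKO (log2 fold change -2.70 ± 0.23, adjusted p = 4.30e-07) and to 12.3 and 10.2 CPM, against 88.9 and 125 CPM, in WT (log2 fold change -3.25 ± 0.24, adjusted p = 1.03e-07). In both receptors the day 7 and day 0 libraries given here did not overlap, as the choice of genes required. Ephb1 fell in TKO alone among the calls, with 2.99 and 2.89 CPM at day 7 and 5.98 and 7.22 CPM at day 0 (log2 fold change -1.16 ± 0.24, adjusted p = 0.000577); in WT it had 2.05 and 1.64 CPM at day 7 and 2.54 and 2.31 CPM at day 0 and was not called, and the difference between the genotypes' changes was not called either. Robo3, the divergent Robo receptor of commissural axons, rose in WT to 15.7 and 14.9 CPM at day 7, against 0.108 and 0.0502 CPM at day 0 (log2 fold change 7.55 ± 0.30, adjusted p = 7.66e-11; 8.17 without WT day 0 replicate 1). The WT day 0 libraries held 4 and 2 counts of Robo3, so the size of this rise is uncertain beyond its SE. In TKO Robo3 rose by 3.77 on the log2 scale, from 3 and 3 counts at day 0.

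3 receptors were too scarce at 1 end of the course for a fitted fold change. Epha8 had 90 counts at day 7 against 1 count at day 0 over the TKO libraries, a ratio of 88.3 after scaling (95% exact interval 15.5 to 3528, counting error only), and 131 against 2 counts over the WT libraries, a ratio of 60.7 (16.5 to 506). Plxnb3, a plexin that binds Sema5a, had 2 counts at day 7 against 77 counts at day 0 over the WT libraries, a ratio of 0.0241 (0.00286 to 0.0899); in TKO its log2 fold change was -1.91. Robo2 had 90 against 2 counts over the TKO libraries, a ratio of 44.2 (11.9 to 370.3), and 54 against 2 counts over the WT libraries, a ratio of 25.0 (6.60 to 212). All 3 were called in both genotypes, Epha8 and Robo2 higher and Plxnb3 lower at day 7.

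The other called genes of the TKO time course were, among ligands, Efna1 (0.73 on the log2 scale), Efna2 (0.76), Efna5 (4.29), Efnb1 (3.04), Efnb2 (3.66), Sema3a (3.58), Sema3d (2.68), Sema3f (3.57), Sema3g (3.29), Sema4a (0.93), Sema4c (3.79), Sema4d (-1.004), Sema6a (5.21), Sema6b (-0.90), Sema6c (-0.98), Sema7a (3.65), Ntn1 (2.37), Ntn3 (1.54), Ntn4 (5.03) and Slit2 (0.86). Among receptors they were Epha2 (1.71), Epha3 (2.47), Epha5 (1.14), Epha7 (3.61), Ephb2 (0.76), Ephb3 (-0.72), Ephb4 (-0.43), Ephb6 (1.35), Plxna1 (1.07), Plxna2 (2.85), Plxna3 (0.76), Plxna4 (4.37), Plxnb1 (3.51), Plxnb2 (0.35), Plxnc1 (1.80), Plxnd1 (1.82), Unc5a (2.30), Unc5b (2.09), Unc5c (1.66), Unc5d (1.56) and Robo1 (0.70). Of the netrin system, 3 of 4 netrins and 4 of 4 Unc5 genes were higher at day 7 in TKO. Their paths differed in between: at day 2 Ntn1 had 0.683 and 1.06 CPM and Unc5b 75.8 and 76.8 CPM, where at day 0 Ntn1 had 15.9 and 15.7 CPM and Unc5b 40.3 and 39.1 CPM. Sema3g, with 0 counts in TKO day 0 replicate 1, had a log2 fold change of 2.30 without that library. The 7 uncalled genes lay between -1.12 and 2.18.

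In WT the further called ligands were Efna1 (0.53), Efna2 (1.93), Efna3 (-0.96), Efna5 (4.30), Efnb1 (1.36), Efnb2 (4.55), Sema3a (3.92), Sema3f (3.71), Sema4a (-1.07), Sema4c (3.74), Sema4d (-0.46), Sema5b (-1.30), Sema6a (5.56), Sema6c (-0.84), Sema7a (3.42), Ntn1 (1.53), Ntn3 (1.98), Ntn4 (5.53) and Slit2 (0.82). The further receptors were Epha2 (1.17), Epha7 (2.33), Epha10 (0.77), Ephb2 (2.61), Ephb3 (-0.57), Ephb4 (-0.64), Ephb6 (0.58), Plxna1 (0.64), Plxna2 (2.20), Plxna3 (1.09), Plxna4 (3.65), Plxnb1 (3.93), Plxnb2 (0.54), Plxnc1 (1.19), Plxnd1 (2.59), Unc5a (5.58), Unc5b (3.39), Unc5d (0.91) and Robo1 (2.10). Here 3 of 4 netrins and 3 of 4 Unc5 genes were higher at day 7, and without WT day 0 replicate 2 the log2 fold change was 5.43 for Sema3a, 6.84 for Unc5a, 6.74 for Ntn4 and 6.03 for Sema5a. The 11 uncalled genes lay between -2.50 and 0.81.

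**Figure D3:**
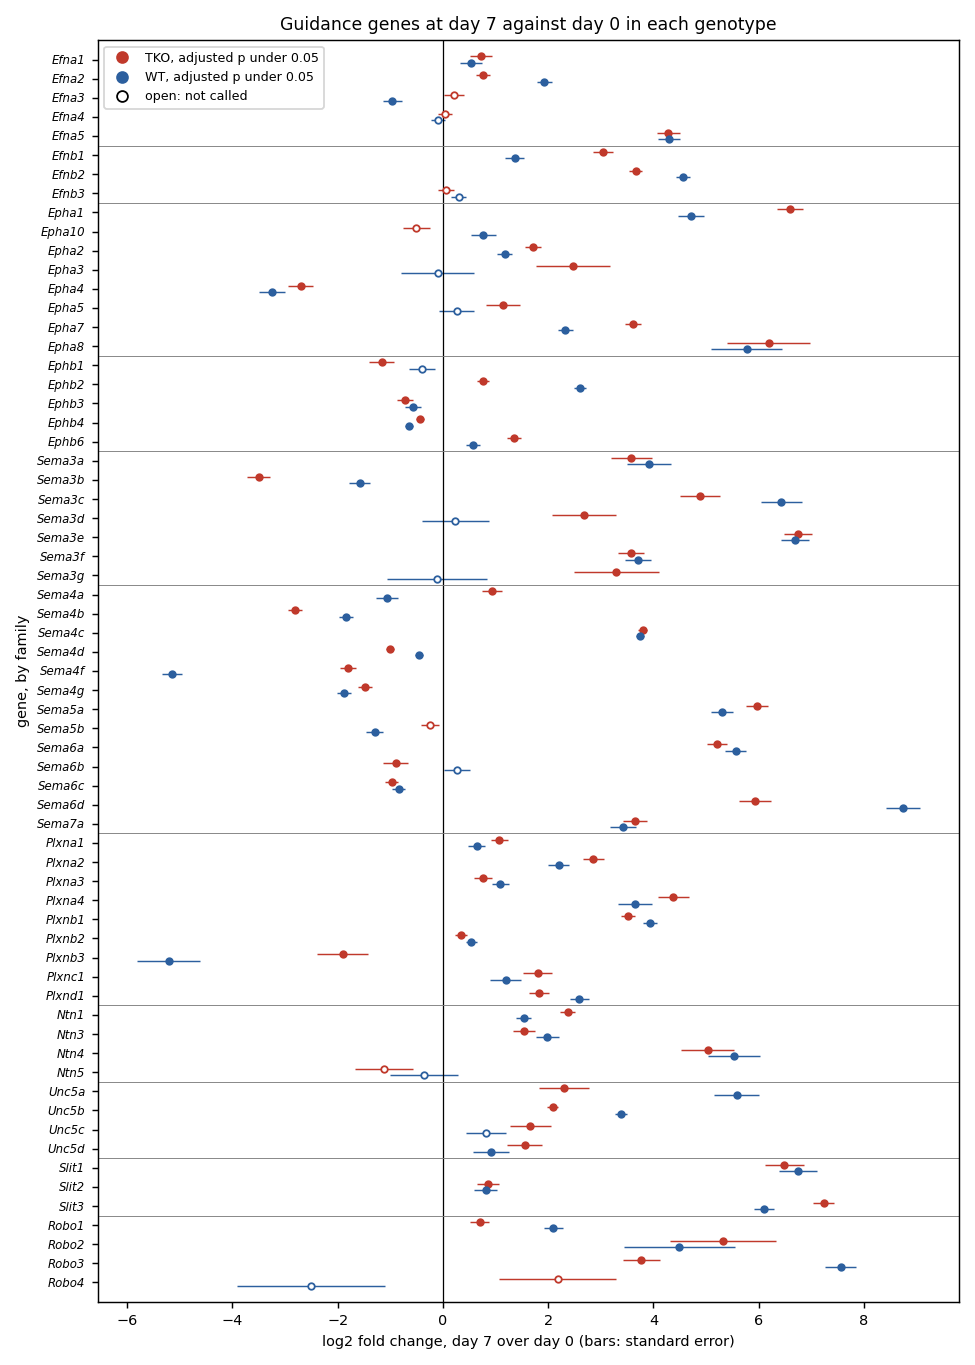
Log2 fold change of each tested guidance gene at day 7 over day 0, in TKO (red) and WT (blue), with standard errors; filled points passed the adjusted p threshold. Most points of both genotypes lie right of 0, with 46 genes higher in TKO and 41 in WT, and Sema4f, Robo3, Unc5a and Sema6d are among the pairs whose difference was called.

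The second question is how the TKO cells differed from WT cells on each day. Of the 65 tested genes, 11 were called at day 0, 20 at day 2, 34 at day 4 and 41 at day 7. Of all tested genes, 12.7% were called at day 0, a share close to the 16.9% of guidance genes. The background was 13.4% at day 2, 28.9% at day 4 and 44.5% at day 7, and the guidance gene shares were 30.8%, 52.3% and 63.1%. The direction leaned to higher in TKO on each day, with 10, 17, 25 and 27 genes higher and 1, 3, 9 and 14 lower on the days in turn. Over all genes the higher shares were 4.52%, 7.91%, 17.8% and 23.4%, and the lower shares were 8.16%, 5.52%, 11.1% and 21.1%. The median log2 fold change of the guidance genes was 0.20, 0.23, 0.12 and 0.27 on the 4 days, with 54, 45, 31 and 24 genes uncalled. Among the more abundant of all tested genes, the median for those of 6000 bases or more was 0.22, 0.23, -0.05 and -0.005. For those of 4000 to 6000 bases it was 0.11, 0.14, -0.02 and -0.02. For those of 2000 to 4000 bases, the range of the median guidance gene, it was -0.002, 0.01, -0.02 and -0.05. With each library's length trend removed, 9, 16, 26 and 24 guidance genes were higher and 2, 5, 13 and 15 lower. The comparisons of the 4 days share no libraries with each other.

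At day 0 the calls were few and small. Ephb1, an EphB receptor, had 5.98 and 7.22 CPM in TKO against 2.54 and 2.31 CPM in WT (log2 fold change 1.44 ± 0.24 (SE), adjusted p = 0.0018). Sema6b, a ligand of the A plexins, had 4.33 and 4.13 CPM in TKO against 1.97 and 1.51 CPM in WT (log2 fold change 1.28 ± 0.25, adjusted p = 0.00494). Sema7a, a lipid-anchored semaphorin that binds integrins and Plxnc1, had 1.48 and 1.44 CPM in TKO against 0.703 and 0.678 CPM in WT (log2 fold change 1.08 ± 0.27, adjusted p = 0.0195). In these 3 genes both TKO libraries lay at about 2 times or more of either WT library. Plxna2, a receptor of Sema6a and of class 3 semaphorins with neuropilin, had 16.5 and 15.5 CPM in TKO against 5.73 and 9.92 CPM in WT (log2 fold change 1.03 ± 0.20, adjusted p = 0.00624). Slit2, the best studied Robo ligand, had 63.8 and 64.6 CPM in TKO against 26.7 and 37 CPM in WT (log2 fold change 1.01 ± 0.22, adjusted p = 0.0108). The WT values of these long genes were further apart than their TKO values, replicate 1 being the lower in both. Ntn3 had 2.5 and 2.57 CPM in TKO against 1.14 and 1.46 CPM in WT (log2 fold change 0.96 ± 0.23, adjusted p = 0.0143). Efnb1, the X-linked B-class ephrin, was the 1 gene lower in TKO, with 3.02 and 3.29 CPM against 5.06 and 5.2 CPM in WT (log2 fold change -0.70 ± 0.19, adjusted p = 0.0308). The rest of the calls were Unc5b (0.71), Efna2 (0.59), Sema4b (0.40) and Sema6c (0.39), and the 54 uncalled genes lay between -1.14 and 1.35.

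The day 0 count rested on all 4 libraries: it was 4 without WT replicate 1, 14 without WT replicate 2, 3 without TKO replicate 1, 5 without TKO replicate 2, and 3 when fitted on these 4 libraries alone. Ephb1, Sema6b and Unc5b kept their call in each of these fits and in each other alternative. Slit2, Ntn3, Sema7a and Efnb1 each lost their call without WT replicate 1, without TKO replicate 1 and without TKO replicate 2. Without WT replicate 1, the library short of long transcripts, the log2 fold change was 0.79 for Slit2 (adjusted p 0.105) and 0.80 for Ntn3 (0.1), and it stayed at 1.10 for Sema7a (0.0715) and -0.72 for Efnb1 (0.0729). Plxna2 had 1.00 without TKO replicate 1 (0.0569).

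At day 2 the widest differences were in genes not called at day 0. Unc5a, a netrin receptor of repulsion, had 2.54 and 3.05 CPM in TKO against 0.65 and 0.986 CPM in WT (log2 fold change 1.79 ± 0.33 (SE), adjusted p = 0.00384). Plxnd1, the receptor of Sema3e, had 17.5 and 19 CPM in TKO against 5.08 and 5.55 CPM in WT (log2 fold change 1.78 ± 0.18, adjusted p = 9.32e-05), more than 3 times as much in either TKO library. Sema4f, a transmembrane semaphorin, had 8.69 and 8.82 CPM in TKO against 3.76 and 3.45 CPM in WT (log2 fold change 1.28 ± 0.16, adjusted p = 0.000311). In each of the 3 genes both TKO libraries lay above both WT libraries, as the choice of genes required. Ephb6, an Eph receptor with an inactive kinase domain, had 9.59 and 9.15 CPM in TKO against 3.49 and 4.28 CPM in WT (log2 fold change 1.27 ± 0.14, adjusted p = 0.000158). Sema7a, at 5.33 and 5.16 CPM in TKO against 2.01 and 2.46 CPM in WT (log2 fold change 1.23 ± 0.21, adjusted p = 0.00262), and Ntn3, at 3.44 and 3.07 CPM against 1.32 and 1.56 CPM (log2 fold change 1.18 ± 0.22, adjusted p = 0.00403), were higher again as at day 0.

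Of the 3 genes lower in TKO at day 2, Efnb1 had 1.07 and 0.751 CPM in TKO against 1.48 and 2.0 CPM in WT (log2 fold change -0.94 ± 0.24, adjusted p = 0.0195). Unc5b, the family's most abundant gene, had 75.8 and 76.8 CPM in TKO against 132 and 121 CPM in WT (log2 fold change -0.73 ± 0.10, adjusted p = 0.000683), the reverse of its direction at day 0. Sema4c, a ligand of Plxnb2, had 43 and 43 CPM against 52.2 and 50.2 CPM (log2 fold change -0.25 ± 0.07, adjusted p = 0.0313), a small difference that lost its call when any 1 of the 4 libraries was left out (adjusted p 0.109 to 0.175). The other calls, all higher in TKO, were Plxna2 (1.03), Slit2 (0.96), Efna5 (0.89), Sema4g (0.83), Sema6b (0.82), Sema5a (0.77), Slit3 (0.71), Epha7 (0.58), Efna2 (0.57), Ephb2 (0.54) and Plxna3 (0.53). The 45 uncalled genes lay between -1.71 and 1.73. The count was 9 without WT replicate 2, the WT library lower in long transcripts, 16 without WT replicate 1, 13 without TKO replicate 1 and 11 without TKO replicate 2. Efnb1 had an adjusted p of 0.178 without WT replicate 2 and 0.212 without TKO replicate 2. Formative and primed genes, none higher and 3 lower of 12, summed to 2343 and 2254 CPM in TKO against 3451 and 3267 CPM in WT at day 2. Dnmt3b, assumed lost in TKO, is on this list and was 1 of the 3 lower genes. It had 995 and 923 CPM in TKO against 1898 and 1695 CPM in WT, which is most of the difference between the sums. Neural genes, 5 higher and 1 lower of 11, summed to 237 and 253 CPM against 168 and 169 CPM. Over all tested genes 7.91% were higher and 5.52% lower in TKO at day 2. Neither list sum overlapped between the genotypes, and the part of these lists in the guidance gene differences was not tested.

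**Figure D4:**
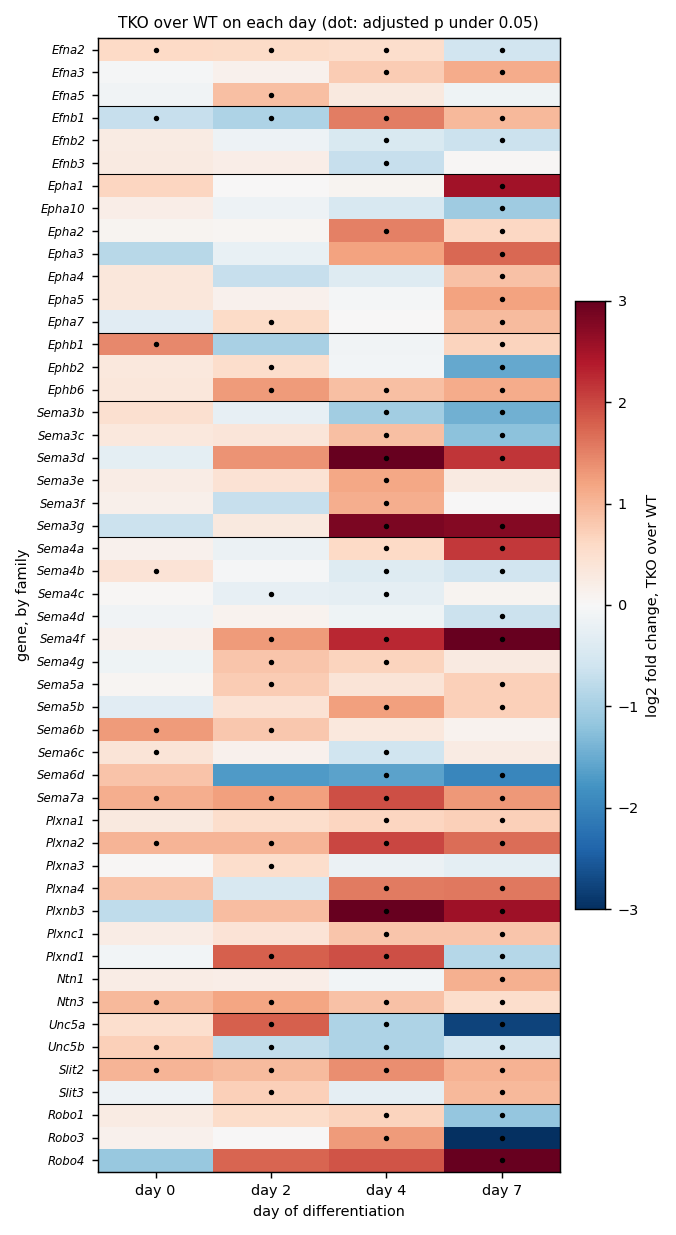
Log2 fold change of TKO over WT on each day for the 50 guidance genes called on at least 1 day; a dot marks an adjusted p under 0.05 (the colour scale is cut at both ends). Sema7a, Plxna2, Ntn3 and Slit2 carry a dot and the colour of a rise on all 4 days, and 11 genes carry dots on cells of both colours.

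At day 4, 5 of 7 Sema3 genes were higher in TKO and 1 was lower, and 6 of 9 plexins were higher and none was lower. Of 13 genes of Sema4 to Sema7, 5 were higher and 4 lower, and of the 3 Efnb genes 1 was higher and 2 lower. Over all tested genes 17.8% were higher and 11.1% lower. Families were not tested against each other. Of the higher genes, 3 Sema3 genes (Sema3d, Sema3e and Sema3g) and 3 plexins (Plxna2, Plxnb3 and Plxnd1) were called in every alternative. Plxnb3 had 0.979 and 1.63 CPM in TKO against 0.0862 and 0.105 CPM in WT (log2 fold change 3.74 ± 0.45 (SE), adjusted p = 4.70e-05). Sema3d, a class 3 semaphorin, had 3.19 and 13.1 CPM in TKO against 0.741 and 1.07 CPM in WT (log2 fold change 3.17 ± 0.55, adjusted p = 0.000993). Its TKO libraries differed by about 4 times, and the fold change was 3.86 without TKO replicate 1 and 1.82 without TKO replicate 2. Sema4f had 11.7 and 10.8 CPM in TKO against 2.79 and 1.84 CPM in WT (log2 fold change 2.27 ± 0.16, adjusted p = 5.53e-07). Plxna2 had 11.7 and 9.45 CPM in TKO against 2.71 and 2.55 CPM in WT (log2 fold change 2.01 ± 0.22, adjusted p = 2.86e-05). Sema7a had 5.4 and 3.89 CPM in TKO against 1.34 and 1.07 CPM in WT (log2 fold change 1.94 ± 0.22, adjusted p = 3.00e-05). In each of these 5 genes the lower TKO library exceeded the higher WT library by more than 2 times. Plxnd1 had 39.1 and 26.1 CPM in TKO against 8.24 and 8.84 CPM in WT (log2 fold change 1.93 ± 0.18, adjusted p = 4.64e-06), and its ligand Sema3e had 106 and 161 CPM against 51.9 and 67.6 CPM (1.16 on the log2 scale).

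Lower in TKO at day 4 were ligands and netrin receptors. Sema6d had 0.729 and 0.529 CPM in TKO against 1.9 and 1.94 CPM in WT (log2 fold change -1.60 ± 0.25, adjusted p = 0.000361). Sema3b had 1.48 and 1.1 CPM against 3.21 and 2.15 CPM (log2 fold change -1.05 ± 0.23, adjusted p = 0.0038). Sema6c had 9.27 and 9.36 CPM against 14.1 and 14.1 CPM (log2 fold change -0.60 ± 0.12, adjusted p = 0.00235). In none of the 3 did the genotypes overlap, as the choice of genes required. Unc5b had 114 and 87.9 CPM in TKO against 194 and 190.4 CPM in WT (log2 fold change -0.93 ± 0.10, adjusted p = 2.03e-05), and Unc5a had 3.23 and 2.83 CPM against 4.59 and 6.88 CPM (log2 fold change -0.92 ± 0.28, adjusted p = 0.0274), the reverse of its day 2 direction. Efnb3, a B-class ephrin of the nervous system, had 2.17 and 2.23 CPM against 4.1 and 3.03 CPM (log2 fold change -0.70 ± 0.16, adjusted p = 0.00589). The call of Efnb3 was lost without WT replicate 1 (adjusted p 0.069), as was that of Sema3b (0.053), and the call of Unc5a was lost without WT replicate 2 (0.221) and without either TKO library (0.0597 and 0.111).

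The other ligands higher in TKO at day 4 were Sema3g (2.82, under 1 CPM in every day 4 library), Efnb1 (1.53), Slit2 (1.38), Sema5b (1.22), Sema3f (1.08), Sema3c (0.91), Ntn3 (0.88), Efna3 (0.76), Sema4g (0.66), Sema4a (0.60) and Efna2 (0.52). The other receptors were Plxna4 (1.56), Epha2 (1.51), Robo3 (1.28, under 1 CPM in every day 4 library), Ephb6 (0.90), Plxnc1 (0.82), Robo1 (0.67) and Plxna1 (0.63). Efnb2 (-0.45), Sema4b (-0.39) and Sema4c (-0.28) were lower. The 31 uncalled genes lay between -1.16 and 1.88; among them Epha1 was lower (-0.41, adjusted p 0.0142) without TKO replicate 1 and higher (0.43, adjusted p 0.00831) without TKO replicate 2. The count was 28 without TKO replicate 1 and 34 without TKO replicate 2, 26 to 28 without 1 of the WT libraries, and 19 when fitted on the 4 libraries alone, where 2821 of all genes were called against 5342. All 7 tested genes of the endothelial list were higher in TKO at day 4, summing to 39.7 and 40.9 CPM in TKO against 6.48 and 7.65 CPM in WT. Kdr was among them, at 11.3 and 11.3 CPM against 0.586 and 0.209 CPM. Emcn was at or under 0.1 CPM in every library. These sums were below those of day 0, which were 143 and 145 CPM in TKO and 156 and 162 CPM in WT. Most of the day 0 sum was Pecam1, at a mean of 135 CPM in TKO and 154 CPM in WT. The part of the endothelial list in the rise of Plxnd1, Sema3d or other genes was not tested. Of 13 naive pluripotency genes 9 were higher in TKO, with sums of 472 and 406 CPM in TKO against 345 and 431 CPM in WT that overlapped. Of 11 neural genes 8 were higher, with sums of 276 and 386 CPM against 295 and 198 CPM that overlapped too. Endoderm genes had 5 higher and 1 lower of 9, and primitive streak and mesoderm genes 3 and 1 of 11. Trophoblast genes had 3 and 1 of 8, and fibroblast genes 1 and 2 of 7. Formative and primed genes, 4 higher and 2 lower of 12, summed to 1554 and 2082 CPM in TKO against 3074 and 2894 CPM in WT, with no overlap. The 2 lower genes, which held the difference between the sums, were Dnmt3b, assumed lost in TKO, and Pim2. Dnmt3b had 431 and 757 CPM in TKO against 1516 and 1245 CPM in WT, and Pim2 a mean of 303 CPM against 690 CPM. Over all tested genes 17.8% were higher and 11.1% lower in TKO at day 4. The part of these lists was not tested.

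At day 7 the differences were largest in number. Sema4f had 6.44 and 7.22 CPM in TKO against 0.652 and 0.579 CPM in WT (log2 fold change 3.47 ± 0.20 (SE), adjusted p = 1.94e-08), so that its TKO over WT difference was wider on each day than on the one before. Epha1 had 332 and 314 CPM in TKO against 53.9 and 59.6 CPM in WT (log2 fold change 2.51 ± 0.19, adjusted p = 6.03e-07). Its level of 178 TPM, against 27.9 TPM in WT, was the highest among the EphA genes in TKO. Epha2, next in TPM, had 116 TPM in TKO against 67.1 TPM in WT, and a log2 fold change of 0.62. Of the 8 tested EphA receptors 6 were higher in TKO and 1, Epha10, was lower, against 23.4% higher and 21.1% lower of all tested genes. Of the 6, Epha3 lost its call without any 1 library. Epha4 lost its call without TKO replicate 1 (log2 fold change 0.69) or WT replicate 2 (0.72). Sema3d had 4.02 and 3.53 CPM in TKO against 1.11 and 0.579 CPM in WT (log2 fold change 2.16 ± 0.56, adjusted p = 0.0076), with an adjusted p of 0.0803 without WT replicate 2. Sema4a had 4.37 and 4.9 CPM in TKO against 1.01 and 1.11 CPM in WT (log2 fold change 2.12 ± 0.20, adjusted p = 2.11e-06). Plxna2 had 113 and 119 CPM in TKO against 40.4 and 31.8 CPM in WT (log2 fold change 1.68 ± 0.19, adjusted p = 1.24e-05), and Plxna4, another receptor of Sema6a, had 9.14 and 10.6 CPM against 3.48 and 3.13 CPM (log2 fold change 1.57 ± 0.24, adjusted p = 0.000131). None of these 6 genes overlapped between the genotypes, as the choice of genes required.

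On the other side, Robo3 had 1.03 and 1.38 CPM in TKO against 15.7 and 14.9 CPM in WT (log2 fold change -3.66 ± 0.21, adjusted p = 2.45e-08; -2.71 with an offset for effective length). Unc5a had 1.06 and 0.799 CPM in TKO against 5.19 and 7.5 CPM in WT (log2 fold change -2.77 ± 0.32, adjusted p = 1.48e-05). Sema6d had 8.88 and 8.93 CPM in TKO against 40.6 and 29 CPM in WT (log2 fold change -1.97 ± 0.19, adjusted p = 2.87e-06). All 3 were called higher at day 7 than at day 0 in WT. Ephb2, an EphB receptor of axons and crypts, had 16.7 and 17.7 CPM in TKO against 51.9 and 47.3 CPM in WT (log2 fold change -1.53 ± 0.11, adjusted p = 1.79e-07). Sema3b had 2.01 and 2.31 CPM against 4.88 and 6.9 CPM (log2 fold change -1.44 ± 0.22, adjusted p = 0.00013), and Sema3c had 16.8 and 13.9 CPM against 32.4 and 40.0 CPM (log2 fold change -1.24 ± 0.25, adjusted p = 0.00168). Sema3c was called higher in TKO at day 4, where the call was lost without TKO replicate 2 (log2 fold change 0.46, adjusted p 0.16) and without WT replicate 2 (0.65, adjusted p 0.112).

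**Figure D5:**
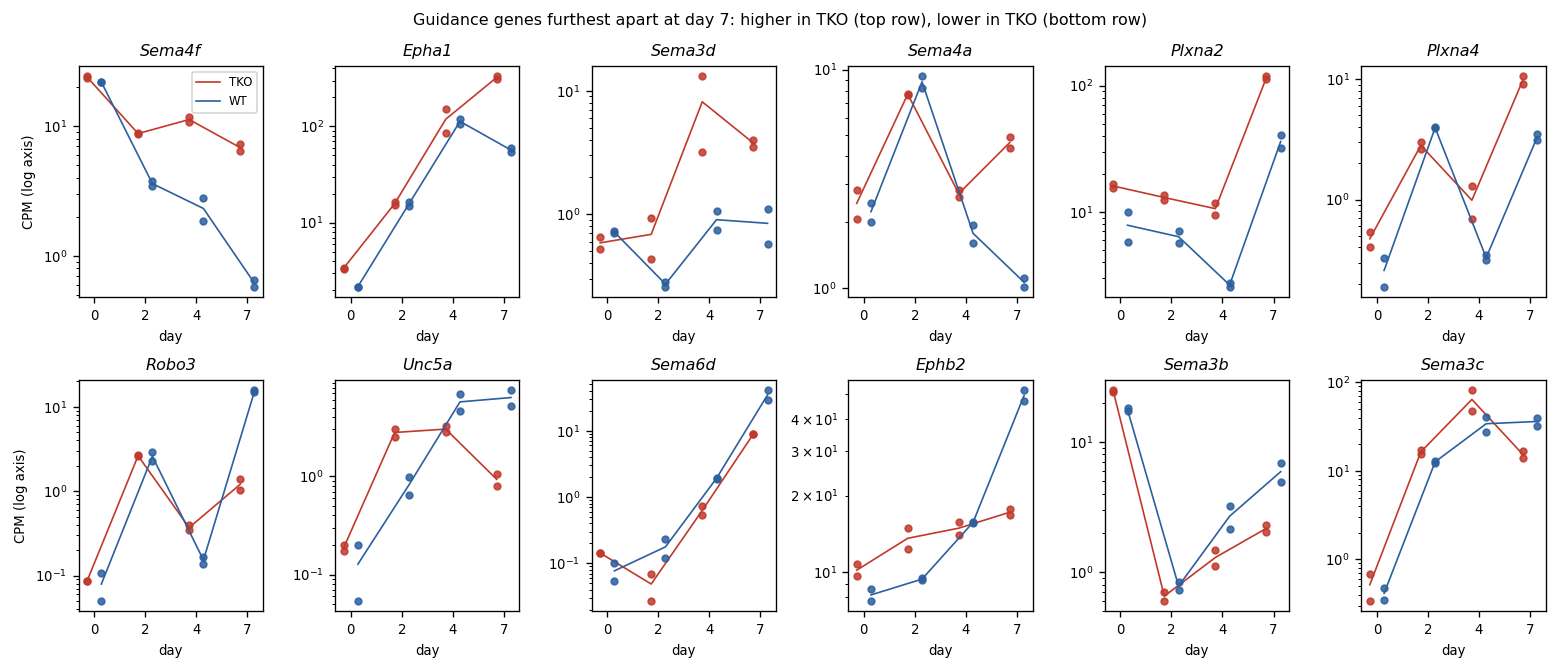
CPM in each library on a log axis by day, for the 6 guidance genes with the largest rises and the 6 with the largest falls in TKO at day 7 among called genes of at least 1 CPM in the higher group; points are libraries, lines join the means of 2, TKO in red left of WT in blue. Sema4f parts from day 2 on, whereas Epha1 was called at day 7 alone.

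The other ligands higher in TKO at day 7 were Sema3g (2.76), Sema7a (1.31), Efna3 (1.12), Ntn1 (1.06), Slit2 (1.05), Slit3 (0.98), Efnb1 (0.97), Sema5a (0.72), Sema5b (0.72) and Ntn3 (0.52). The other receptors were Robo4 (3.54), Plxnb3 (11 counts against 2, a ratio of 6.41 with a 95% exact interval of 1.40 to 59.6), Epha3 (1.73), Epha5 (1.21), Ephb6 (1.11), Epha7 (0.95), Epha4 (0.88), Plxnc1 (0.82), Plxna1 (0.72) and Ephb1 (0.67). Lower were the ligands Sema4d (-0.65), Efnb2 (-0.64), Efna2 (-0.57) and Sema4b (-0.56) and the receptors Robo1 (-1.16), Epha10 (-1.07), Plxnd1 (-0.87) and Unc5b (-0.60). The 24 uncalled genes lay between -0.37 and 0.95. Sema3g, Robo4 and Plxnb3 stayed under 1 CPM in every day 7 library, and the call was lost for Robo4 without TKO replicate 1 (adjusted p 0.242) or either WT library (0.153 each), and for Plxnb3 without TKO replicate 2 (0.291) or either WT library (0.0863 and 0.0867). Epha3 (0.0602 to 0.209), Ephb1 (0.0702 to 0.251) and Ntn3 (0.115 to 0.234) lost their call without any 1 of the 4 libraries. The count was 31 to 37 when 1 library was left out, lowest without WT replicate 2, and the 14 genes lower in TKO were called in each of these fits. Primitive streak and mesoderm genes, of which 8 of 11 were higher in TKO, summed to 1068 and 1094 CPM in TKO against 329 and 255 CPM in WT at day 7, and endothelial markers, of which 5 of 7 were higher, to 20.4 and 21.8 CPM against 4.90 and 3.86 CPM. Neural genes (4 higher and 3 lower of 11), endoderm genes (2 and 4 of 9), fibroblast genes (2 and 0 of 7), trophoblast genes (2 and 2 of 8), naive genes (5 and 3 of 13) and formative genes (3 and 5 of 12) were also called at day 7, in both directions apart from the fibroblast list. Over all tested genes 23.4% were higher and 21.1% lower in TKO at day 7. The endothelial sums were lower than at day 0 in both genotypes, where Pecam1 made up most of them. The part of any of these lists in the guidance gene differences was not tested.

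4 genes were higher in TKO on all 4 days: the ligands Sema7a, Ntn3 and Slit2 and the receptor Plxna2. None of them kept the day 0 call in every alternative. Ntn3 at day 7 was lost without any 1 of the 4 libraries (adjusted p 0.115 to 0.234), as was Slit2 at day 2 (0.0612 to 0.305), and Plxna2 at day 2 was lost without TKO replicate 1 (0.0501) or WT replicate 2 (0.0866). Slit2 had log2 fold changes of 1.01, 0.96, 1.38 and 1.05 on days 0, 2, 4 and 7, while its WT level was 26.7 and 37 CPM at day 0, 2.66 and 1.84 CPM at day 2, 4.28 and 5.48 CPM at day 4 and 62.7 and 49.5 CPM at day 7. Plxna2 had 1.03, 1.03, 2.01 and 1.68, and Sema7a had 1.08, 1.23, 1.94 and 1.31. Sema4f and Ephb6 were higher on 3 days and lower on none. No gene was lower on all 4 days, and Unc5b, lower on days 2, 4 and 7, was higher on day 0. These day patterns were counted among the guidance genes only, with no count over all tested genes to set beside them. On no day were 15 genes called, among them abundant ones such as Plxnb1, Plxnb2, Sema6a, Ephb4 and Efna4, and 11 were called in both directions on different days. Efnb1 was lower on days 0 and 2 and higher on days 4 and 7, Plxnd1 higher on days 2 and 4 and lower on day 7, and Robo1 and Robo3 higher on day 4 and lower on day 7. Efna2, Ephb2, Sema3c, Sema4b, Sema6c and Unc5a were the rest, beside Unc5b. Only for Plxnd1, Unc5a and Unc5b did a call in each direction hold in every alternative; the other 8 reversals rest on at least 1 call that was lost in some, such as those of Sema4b and Sema6c at day 0, Ephb2 at day 2, and Robo1, Robo3 and Sema3c at day 4.

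The change of the TKO over WT difference between day 7 and day 0 was tested directly as an interaction. It was called for 25 of the 65 genes, 11 higher and 14 lower, against 27.1% of all tested genes (15.8% higher and 11.3% lower), with a share of 38.5% among the guidance genes. TKO gained on WT in Sema4f (log2 fold change 3.34 ± 0.25, adjusted p = 4.31e-07) and Sema4a (log2 fold change 2.00 ± 0.28, adjusted p = 0.000144), and lost most in Robo3 (log2 fold change -3.79 ± 0.67, adjusted p = 0.000897) and Unc5a (log2 fold change -3.28 ± 0.74, adjusted p = 0.00477). For Unc5a the value was -2.66 without WT day 0 replicate 1 and -4.56 without replicate 2. That of Robo3 rests on 3 and 3 counts in the TKO and 4 and 2 counts in the WT day 0 libraries. Plxnb3 was called too, on 2 counts in the WT day 7 libraries, and lost its call without TKO day 7 replicate 2 (adjusted p 0.169) or either WT day 7 library (0.056 and 0.0567).

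Promoter sequence was examined as a feature that the choice of genes did not use, since DNA methylation falls on the CG dinucleotide; methylation itself was not measured here. RefSeq promoter windows of 300 bases, 250 before and 50 after the start (GRCm38.p6), matched 57 of the 66 genes with 73 windows. Their median was 19 CG against 7 over 32851 promoters, those of untested genes included. Among tested genes, placed by the window richest in CG, 2045 had 0 to 5 CG and 3031 had 6 to 15 CG. A further 5470 had 16 to 30 CG and 2616 had 31 to 67 CG. Tested guidance genes numbered 5, 13, 26 and 12 in these ranges, so 16 to 30 CG was the largest group in both. The windows of 5 genes follow, chosen after their values were seen, with CG in capitals: Sema4f, Sema7a and Plxnb3, higher in TKO at day 7, and Robo3 and Unc5a, lower. They are written 5′ to 3′ along the gene. No window was used for Sema6a, Sema3f, Unc5d, Ntn1, Plxna4, Slit1, Sema3b, Plxna1 and Efnb3.
Sema4f (chr6:82939720-82940019, minus strand): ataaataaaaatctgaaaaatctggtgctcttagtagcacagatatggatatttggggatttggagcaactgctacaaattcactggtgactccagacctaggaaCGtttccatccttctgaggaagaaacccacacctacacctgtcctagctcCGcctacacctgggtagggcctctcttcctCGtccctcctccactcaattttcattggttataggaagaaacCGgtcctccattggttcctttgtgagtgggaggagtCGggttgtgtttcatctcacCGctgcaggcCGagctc
Sema7a (chr9:57939862-57940161, plus strand): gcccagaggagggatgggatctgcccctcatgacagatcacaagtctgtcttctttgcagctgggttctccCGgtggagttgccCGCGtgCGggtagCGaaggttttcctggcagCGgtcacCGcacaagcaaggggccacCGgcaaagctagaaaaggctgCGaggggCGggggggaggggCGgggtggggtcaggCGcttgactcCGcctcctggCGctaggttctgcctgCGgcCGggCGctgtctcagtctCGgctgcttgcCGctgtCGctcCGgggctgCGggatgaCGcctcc
Plxnb3 (chrX:73756853-73757152, plus strand): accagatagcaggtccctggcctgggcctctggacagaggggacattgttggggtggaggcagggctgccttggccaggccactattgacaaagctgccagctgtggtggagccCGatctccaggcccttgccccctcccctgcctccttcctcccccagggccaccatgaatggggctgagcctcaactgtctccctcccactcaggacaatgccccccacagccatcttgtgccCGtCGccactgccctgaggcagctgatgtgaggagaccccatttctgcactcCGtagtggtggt
Robo3 (chr9:37433126-37433425, minus strand): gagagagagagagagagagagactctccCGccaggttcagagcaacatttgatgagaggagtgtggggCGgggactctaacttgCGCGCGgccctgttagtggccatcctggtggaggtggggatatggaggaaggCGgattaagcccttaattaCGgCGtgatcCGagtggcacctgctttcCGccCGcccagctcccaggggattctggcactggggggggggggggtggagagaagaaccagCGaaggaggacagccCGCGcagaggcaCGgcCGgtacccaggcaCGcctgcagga
Unc5a (chr13:54949161-54949460, plus strand): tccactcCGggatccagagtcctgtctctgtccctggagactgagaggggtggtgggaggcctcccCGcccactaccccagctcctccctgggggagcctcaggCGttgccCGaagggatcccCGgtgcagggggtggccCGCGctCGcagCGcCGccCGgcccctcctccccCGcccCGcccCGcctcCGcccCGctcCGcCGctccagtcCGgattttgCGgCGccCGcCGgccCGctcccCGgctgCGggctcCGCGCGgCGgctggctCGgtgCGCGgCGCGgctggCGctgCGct
The windows hold 7 CG in Sema4f, 23 in Sema7a, 4 in Plxnb3, 17 in Robo3 and 37 in Unc5a. Of all promoters 52.1% hold as many as Sema4f or more, 21.5% as many as Sema7a, 68.6% as many as Plxnb3, 31.4% as many as Robo3 and 5.58% as many as Unc5a. The last 50 bases of each window lie within the span of the gene, and the end of each window was found in an annotated transcript. The genes span chr6:82911885-82939769 (Sema4f), chr9:57940112-57962865 (Sema7a), chrX:73757090-73772514 (Plxnb3), chr9:37415669-37433246 (Robo3) and chr13:54949411-55006018 (Unc5a).

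Calls at day 7 were also counted by the CG number of the window, with no test. A gene with several windows was placed by the window richest in CG. Of 13 guidance genes with 6 to 15 CG, 8 were higher and 2 lower in TKO, and of 12 with 31 to 67 CG, 3 were higher and 5 lower. The 26 with 16 to 30 CG had 11 higher and 5 lower, and the 5 with 0 to 5 CG had 2 and 1. Over all tested genes the shares were 32.5% higher and 9.10% lower with 0 to 5 CG, 28.4% and 22.2% with 6 to 15 CG, 18.7% and 27.4% with 16 to 30 CG, and 19.1% and 24.5% with 31 to 67 CG. At day 0 the guidance genes with 6 to 15 CG had 1 higher and 1 lower, and all tested genes of that range 3.79% and 11.1%. A CG count is a description of the window and no measure of its methylation.

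Several guidance genes are neighbours in the genome (GRCm38). Robo4 (chr9:37401897-37415115, plus strand) and Robo3 (chr9:37415669-37433246, minus strand) lie 0.554 kb apart with their ends facing, and at day 7 went opposite ways, Robo4 with 0.891 and 0.303 CPM in TKO against 0.0483 and 0.0482 CPM in WT and Robo3 with a log2 fold change of -3.66. Ephb2 and Epha8 lie 93.4 kb apart on chromosome 4, and Ephb2 was called at day 7 and Epha8 was not. Efna1, Efna3 and Efna4 lie in a row on chromosome 3, at 32.8 kb and 10.4 kb, and of the 3 only Efna3 was called, at 0.76 on day 4 and 1.12 on day 7. The differences were thus called gene by gene within these clusters, with no test of the contrast between neighbours.

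Coreceptors and effectors of the same pathways, on lists of their own, were read for context. Of 29 tested coreceptors and further ligands or receptors, 3, 9, 15 and 12 were higher in TKO on days 0, 2, 4 and 7. On those days 2, 0, 1 and 8 were lower, with median log2 fold changes of 0.24, 0.38, 0.60 and 0.40. Over all tested genes the higher shares were 4.52%, 7.91%, 17.8% and 23.4%, and the lower shares 8.16%, 5.52%, 11.1% and 21.1%. Nrp2, a coreceptor of class 3 semaphorins, was higher at day 2 (0.80), day 4 (1.28) and day 7 (1.62), with 37.3 and 33.2 CPM in TKO against 12.2 and 10.8 CPM in WT at day 7. Nrp1, its relative, was higher at day 4 (3.82), with 2.56 and 4.41 CPM against 0.328 and 0.146 CPM. At day 7 Islr2 (-1.62), a membrane protein that modulates Robo and Trk signals, and Flrt3 (-0.79), which binds Unc5 receptors, were lower. Of 44 tested intracellular effectors and sheddases, 6, 9, 10 and 8 were higher and 3, 1, 5 and 10 lower on the 4 days. Their medians were 0.11, 0.20, 0.06 and 0.02, against -0.03, -0.01, 0.01 and 0.003 over all tested genes. At day 7 the called effectors included Rras, a small GTPase that plexins inactivate (-1.93), and Srgap1, a GTPase-activating protein downstream of Robo receptors (-1.45), both lower. Rnd1, a plexin-binding GTPase (2.21), was higher.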

How the data were processed

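Per the submitters' processing notes, reads were assigned with kallisto (version not given in the sources used here) on GRCm38 (mm10). The authors deposited, for each library, estimated counts, TPM and effective lengths per transcript. Of 119414 transcripts, 116728 were matched to genes. The counts of a gene's transcripts were added up and rounded to whole numbers; no column of other samples was present. Levels between genes use the deposited TPM, summed per gene.

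Counts were tested with edgeR 4.0.16 (R 4.3.3): TMM scaling, low-count filter by group, 1 mean per group over 16 libraries, robust quasi-likelihood fit with 8 residual degrees of freedom, Benjamini-Hochberg adjustment over 18489 genes. Standard errors were derived from the fold change and its F value. The code was tested on simulated data. DESeq2 1.42.0 was an alternative. The guidance genes, lists and tests were chosen with earlier results of these data known. Genes described in full were up to 6 rises and 6 falls per comparison, called, at 1 CPM or more in the higher group, with libraries that do not overlap; other called genes are named with their fold change, and uncalled genes by range. Alternatives covered filters, scaling, length corrections, left-out libraries and a replicate block. Library sizes limit precision for genes under 1 CPM, and count intervals cover counting error only.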

Additional observations from a re-analysis of the deposited data

Results flagged for a closer look

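For 25 guidance genes the TKO over WT difference changed between day 0 and day 7, by the interaction term of the edgeR fit with an adjusted p under 0.05. Values are that difference at day 7 minus that at day 0, on the log2 scale. The 11 genes in which TKO gained on WT were Sema4f (3.34), Sema4a (2.00), Epha1 (1.88), Efnb1 (1.67), Epha7 (1.29), Efna3 (1.17), Slit3 (1.13), Sema5b (1.05), Ntn1 (0.84), Ephb6 (0.78) and Plxnb3 (3.30, a fitted value that rests on 2 counts in WT day 7 and is no measure of size). The 14 in which TKO lost were Sema4d (-0.54), Plxnd1 (-0.77), Efnb2 (-0.89), Sema4b (-0.96), Sema6b (-1.17), Efna2 (-1.17), Epha10 (-1.27), Unc5b (-1.30), Robo1 (-1.40), Ephb2 (-1.85), Sema3b (-1.92), Sema6d (-2.82), Unc5a (-3.28) and Robo3 (-3.79). Of the 25, 17 were called in every alternative run. Of all tested genes, 27.1% were called by the same term. Causes of these differences were not tested.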

How the results depend on the processing

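Of the counts of called guidance genes, those at days 0, 2 and 4 moved most. Fitted on only the libraries compared, 3 genes were called at day 0 and 19 at day 4, in place of 11 and 34, while the counts were 28 in place of 20 at day 2, 48 in place of 41 at day 7 and 32 in place of 25 for the interaction; the cause was not tested. Leaving out 1 library gave 3 to 14 genes at day 0, 9 to 16 at day 2, 26 to 34 at day 4, 31 to 37 at day 7, 56 to 58 for TKO day 7 against day 0, 51 to 54 for WT day 7 against day 0, and 21 to 28 for the interaction. Epha1, uncalled at day 4, ran from -0.41 to 0.43 (log2) when a TKO day 4 library was left out. DESeq2 called 13, 24, 35 and 40 genes on days 0, 2, 4 and 7, and the effective-length offset 9, 15, 27 and 36. After removal of each library's length trend, an alternative chosen after seeing the data, the counts were 11, 21, 39 and 39. Of these, 9, 16, 26 and 24 were higher in TKO and 2, 5, 13 and 15 lower. Calls present in every alternative were 3 of 11 at day 0, 8 of 20 at day 2, 16 of 34 at day 4, 31 of 41 at day 7, 53 of 58 for the TKO course and 49 of 54 for the WT course.

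The replicate numbers did not pair the samples: over 28 pairs of groups the correlation of deviations ran from -0.554 to 0.121, with 1 over 0.1. With the replicate block, 9, 19, 34 and 39 genes were called on days 0, 2, 4 and 7, 58 and 54 in the TKO and WT courses, and 24 by the interaction.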
